A study of Mus musculus with 4 samples.

Results

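Imprinted genes of fetal growth were followed in the hearts of mice lacking both copies of the microRNA gene miR-1. The set was 10 genes, Igf2, Dlk1, H19, Meg3, Cdkn1c, Grb10, Plagl1, Peg3, Mest and Ndn, taken by name from the 22552 gene rows of each deposited table. All 10 were found, all had the flag OK in both tables, and all 10 passed the filter on low values used below, which asks for 5 FPKM or more in 1 of the libraries compared; each of the 10 was above that line in all 4 libraries. FPKM counts fragments per kilobase of transcript, scaled to the size of the library, so it is a level that allows for transcript length. RNA came from whole hearts of strain Sv129 and was selected by its poly-A tail.

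There were 4 libraries, 1 for each group. The groups were double knockouts (dKO) lacking the genes miR-1-1 and miR-1-2 at postnatal day 2.5 (P2.5), their littermate controls labelled dHET at P2.5, dKO at embryonic day 15.5 (E15.5) and dHET at E15.5. The labels name no Cre or transgene, do not spell out dHET, and do not give the number of hearts behind a library. With 1 library for each group no difference below has a replicate error, and no test of genotype or stage was possible. The table for E15.5 heads its control column as wild type where the sample label says dHET, so the control genotype at that stage is uncertain. The scaling total recovered from low values was 49900000 fragments in the P2.5 dKO library and 44600000 in the P2.5 dHET library, and 104000000 and 86500000 in the E15.5 dKO and dHET libraries. Reads were single at P2.5 and paired at E15.5. The Y-linked transcript Ddx3y was listed at 0 in P2.5 dKO hearts, against 11.7 FPKM in the P2.5 dHET, 14.8 in the E15.5 dKO and 15.3 in the E15.5 dHET library, so sex and genotype differed together at P2.5.

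An imprinted gene is read from the copy inherited from a single parent, under methylation marks set in the egg or sperm. Of the 10 genes, 6 are known as expressed from the paternal copy (Igf2, Dlk1, Plagl1, Peg3, Mest and Ndn) and 4 from the maternal copy (H19, Meg3, Cdkn1c and Grb10). As a group they control growth of the fetus and placenta, with paternally expressed Igf2 promoting growth and maternally expressed Cdkn1c and Grb10 restraining it, and many of them are known to be turned down in most organs after birth. These libraries do not separate the parental copies. In whole hearts, fewer cells of a type and less RNA per cell cannot be told apart.

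The data showed 2 patterns. No gene of the set reached a 1.5-fold difference between dKO and dHET at either stage. All 10 were lower at P2.5 than at E15.5 in dKO and in dHET hearts, 8 of them by at least 2-fold in both genotypes.

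Several of these genes also carry microRNA genes, and the sequences are shown because the loci make small RNAs besides the transcripts measured here. The mature microRNAs below are from RefSeq (build GRCm38.p6), 5′ to 3′, with the seed, bases 2 to 8, in capitals. By the GENCODE release M1 annotation on mm9, Mir675 lies in an exon of 2 of the 3 H19 transcripts that span it, Mir483 in an intron of 8 Igf2 transcripts and Mir335 in an intron of 9 Mest transcripts. Mir770 lies in an exon of 1 of 3 spanning Meg3 transcripts, and Mir1906-1 in an exon of all 5 that span it.
mmu-miR-675-5p: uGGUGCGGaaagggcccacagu
mmu-miR-675-3p: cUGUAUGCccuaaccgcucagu
mmu-miR-483-5p: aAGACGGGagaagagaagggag
mmu-miR-483-3p: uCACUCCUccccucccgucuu
mmu-miR-335-5p: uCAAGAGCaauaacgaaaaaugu
mmu-miR-335-3p: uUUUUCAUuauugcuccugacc
mmu-miR-770-5p: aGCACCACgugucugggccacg
mmu-miR-770-3p: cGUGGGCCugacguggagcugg
mmu-miR-1906: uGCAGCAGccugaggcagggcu
No 2 of these 9 sequences have the same seed. The rows for Mir675, Mir483, Mir335 and Mir770 were listed at 0 FPKM in all 4 libraries, which checks nothing, since poly-A selected libraries do not capture mature microRNAs.

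The growth-promoting ligand Igf2 is insulin-like growth factor 2, which acts through the IGF1 and insulin receptors. It lies on the minus strand of chromosome 7 (149836673 to 149852721 on mm9). Igf2 had 370 FPKM in the P2.5 dKO library and 405 FPKM in the P2.5 dHET library. At E15.5 it had 1494 FPKM in dKO and 1345 FPKM in dHET, which placed it 6th and 7th among the 22519 rows used of those libraries. Rows with flags other than OK or too few fragments were left out of such places. The dKO value was the lower at P2.5 and the higher at E15.5, with log2 changes of -0.13 and 0.15. All changes are log2((FPKM + 1)/(FPKM + 1)), which understates changes of low genes. The gap between stages was wider than the gap between genotypes: the log2 change of P2.5 over E15.5 was -2.01 in dKO, a 4.02-fold lower level, and -1.73 in dHET, a 3.32-fold lower level. An antisense gene, Igf2as, overlaps Igf2, and whether the counting used strand is not given in the sources used here, so reads from the overlap cannot be told apart.

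Since miR-1 is what the dKO lacks, each gene's longest 3′ UTR in the annotation was read for words that pair with the miR-1 seed. The words were ACATTCC and CATTCCA, read on the transcript's strand; they overlap in ACATTCCA. An annotated 3′ UTR existed for 8 of the 10 genes, the exceptions being the noncoding H19 and Meg3. Of those 8, Igf2 alone held either word, with CATTCCA at base 639 and ACATTCC at base 945 of a 3′ UTR of 3048 bases. Both are shown with their flanks from NCBIM37, the assembly of mm9, with the matching word in capitals.
Igf2 word at base 639: cttcactggtCATTCCAtcacaaatgtc
Igf2 word at base 945: gatttgaaccACATTCCccaaaacaagg
Either word was in the longest 3′ UTR of 18.4% of the 8672 genes that reached 5 FPKM in a library. Those 3′ UTRs had a median of 1185 bases, shorter than that of Igf2, and the share was not matched for length. A match is a description of the letters and not evidence of a site in use.

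The other ligand-like gene, Dlk1, encodes a membrane protein with repeats like those of Notch ligands. It lies on the plus strand of chromosome 12 (110691033 to 110701546 on mm9). Dlk1 had the lowest levels of the set, 13.01 FPKM in P2.5 dKO and 9.81 FPKM in P2.5 dHET, and 29.2 FPKM in E15.5 dKO and 31.0 FPKM in E15.5 dHET. These values rest on 649, 437, 3034 and 2684 fragments per kilobase of transcript in the P2.5 dKO, P2.5 dHET, E15.5 dKO and E15.5 dHET libraries. The dKO value was higher by 0.37 on the log2 scale at P2.5 and lower at E15.5, at -0.09. Dlk1 was 2.16-fold lower at P2.5 than at E15.5 in dKO and 2.96-fold lower in dHET.

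The noncoding RNA H19 is expressed from the maternal chromosome of the same locus as Igf2, with which it shares enhancers. It lies on the minus strand of chromosome 7 (149761434 to 149764048 on mm9). H19 had 389 FPKM in P2.5 dKO and 286 FPKM in P2.5 dHET, and 1469 FPKM in E15.5 dKO and 1502 FPKM in E15.5 dHET. The P2.5 gap was the widest genotype difference of the set, a log2 change of 0.44 or 1.36-fold, and the E15.5 change was -0.03. Between stages H19 was 3.77-fold lower at P2.5 in dKO and 5.23-fold lower in dHET, the widest of the set in dHET; in dKO that of Igf2 was wider. The level of Igf2 divided by that of H19 was 0.952 in P2.5 dKO and 1.41 in P2.5 dHET, and 1.02 in E15.5 dKO and 0.896 in E15.5 dHET. At E15.5 the pair supplied 67.1% of the summed FPKM of the 10 genes in dKO and 65.6% in dHET, and at P2.5 they supplied 58.3% in dKO and 58.0% in dHET.

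The noncoding RNA Meg3 is expressed from the maternal chromosome of the locus that holds Dlk1 (plus strand of chromosome 12, 110779211 to 110809936 on mm9). Meg3 had 37.8 FPKM in P2.5 dKO and 38.0 FPKM in P2.5 dHET, and 69.4 FPKM in E15.5 dKO and 74.6 FPKM in E15.5 dHET. Genotypes lay close together at both stages, with a log2 change of -0.01 in the P2.5 pair and -0.10 in the E15.5 pair. Meg3 stayed just short of a 2-fold difference between stages, at 1.81-fold lower at P2.5 in dKO and 1.94-fold lower in dHET. Dlk1 stood at 0.344 of the Meg3 level in P2.5 dKO and 0.258 in P2.5 dHET, and at 0.421 and 0.416 in E15.5 dKO and dHET. An antisense transcript, Gm17639, overlaps Meg3.

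Of the growth restrictors, Cdkn1c encodes the cyclin-dependent kinase inhibitor p57, which holds cells out of the cell cycle (minus strand of chromosome 7, 150644255 to 150646955 on mm9). Cdkn1c had 24.2 FPKM in P2.5 dKO and 19.1 FPKM in P2.5 dHET, and 84.0 FPKM in E15.5 dKO and 79.0 FPKM in E15.5 dHET. The dKO value was the higher at both stages, with log2 changes of 0.33 and 0.09. At P2.5 Cdkn1c was 3.38-fold lower than at E15.5 in dKO and 3.98-fold lower in dHET.

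Grb10 encodes an adaptor protein that binds the insulin and IGF1 receptors and dampens their signal (minus strand of chromosome 11, 11830511 to 11938686 on mm9). Grb10 had 167 FPKM in P2.5 dKO and 163 FPKM in P2.5 dHET, and 339 FPKM in E15.5 dKO and 389 FPKM in E15.5 dHET. The log2 change with genotype was 0.04 at P2.5, where the sign turned with the scaling, at -0.05 when centred on all genes and -0.14 when libraries were set to equal sums, and -0.20 at E15.5. At P2.5 Grb10 was 2.02-fold lower than at E15.5 in dKO, just past the 2-fold line (Grb10 and Dlk1 fell short of it in dKO with a pseudocount of 5), and 2.37-fold lower in dHET.

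Plagl1 encodes a zinc finger transcription factor that restrains proliferation in cultured cells, although mouse fetuses without it grow less (plus strand of chromosome 10, 12810497 to 12851500 on mm9). Plagl1 had 57.7 FPKM in P2.5 dKO and 67.2 FPKM in P2.5 dHET, and 147 FPKM in E15.5 dKO and 175 FPKM in E15.5 dHET. The dKO value was the lower at both stages, with log2 changes of -0.22 and -0.25. Among the genes with the same sign at both stages its smaller change was the largest, while Cdkn1c, Mest and Ndn had larger changes at P2.5. Plagl1 was 2.53-fold lower at P2.5 than at E15.5 in dKO and 2.59-fold lower in dHET. Over its 2 genotype changes the nearest of the 7154 genes that reached 5 FPKM in all libraries were Bmi1, at a distance of 0.005, Fam136a at 0.007 and Cbfb at 0.008. Such a pair of changes was common, since 157 genes lay within a distance of 0.1.

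The remaining 3 genes are expressed from the paternal copy. Mest, which encodes a membrane protein of the hydrolase family, lies on the plus strand of chromosome 6 (30673547 to 30698457 on mm9), and its last part overlaps the antisense gene Copg2. Mest had 202 FPKM in P2.5 dKO and 164 FPKM in P2.5 dHET, and 686 FPKM in E15.5 dKO and 642 FPKM in E15.5 dHET. In those E15.5 libraries it stood 20th and 23rd among the rows used. The dKO value was the higher at both stages, by log2 changes of 0.30 and 0.10. Mest was 3.38-fold lower at P2.5 in dKO and 3.90-fold lower in dHET. Copg2 itself had 22.5 and 20.2 FPKM in P2.5 dKO and dHET, and 25.4 and 23.2 FPKM in E15.5 dKO and dHET, so the overlapping gene, named after its values were seen, had log2 changes between stages of -0.16 in dKO and -0.19 in dHET.

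Peg3 encodes a large zinc finger protein (minus strand of chromosome 7, 6656603 to 6683132 on mm9). Peg3 had 16.7 FPKM in P2.5 dKO and 18.9 FPKM in P2.5 dHET, and 61.3 FPKM in E15.5 dKO and 67.7 FPKM in E15.5 dHET. The dKO value was the lower at both stages, with log2 changes of -0.17 and -0.14. The difference between stages was nearly the same size in the genotypes, 3.53-fold lower at P2.5 in dKO and 3.46-fold lower in dHET.

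Ndn encodes necdin, a protein of the MAGE family that is best known from neurons (plus strand of chromosome 7, 69493163 to 69494814 on mm9). Ndn had 23.5 FPKM in P2.5 dKO and 19.5 FPKM in P2.5 dHET, and 34.8 FPKM in E15.5 dKO and 33.5 FPKM in E15.5 dHET. Its log2 change with genotype was 0.26 in the P2.5 pair and 0.05 in the E15.5 pair. The stage difference was the smallest of the set, 1.46-fold lower at P2.5 in dKO and 1.69-fold lower in dHET.

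**Figure D1:**
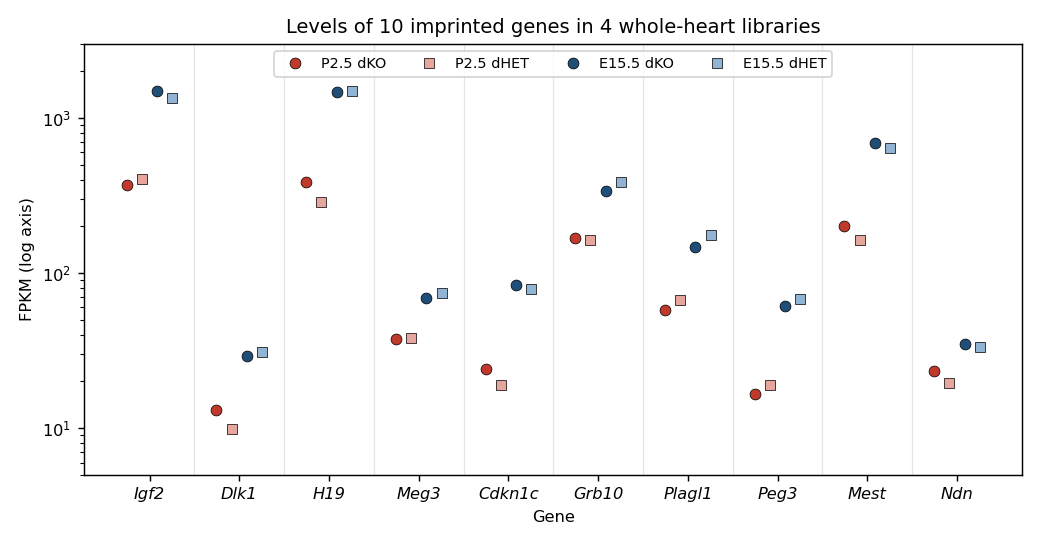
FPKM on a log axis of the 10 imprinted genes in the 4 libraries, 1 point for each library, with circles for dKO, squares for dHET, red for P2.5 and blue for E15.5. For every gene both P2.5 points lie below both E15.5 points, and points of the same stage lie close together.

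Set side by side, the genotype changes were small. At P2.5 the 10 log2 changes ran between -0.22 and 0.44 with a median of 0.15, where the median of all 8206 counted genes was 0.08. None of the 10 was at least 1.5-fold higher in dKO, against 3.62% of all counted genes, and none was at least 1.5-fold lower, against 1.16%. Higher in dKO by at least 25% were H19, Dlk1 and Cdkn1c, 3 of 10 against 18.0% of all counted genes. Above 0 were 6 of the 10, against 63.2% of all counted genes. With libraries set to equal sums the median of all counted genes at P2.5 moved to -0.08 and that of the 10 genes to -0.02, so the direction of the set at P2.5 depended on the scaling.

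At E15.5 the 10 log2 changes ran between -0.25 and 0.15 with a median of -0.06, where the median of all 8315 counted genes was -0.01. None of the 10 was at least 1.5-fold higher in dKO, against 0.493% of all counted genes, and none was at least 1.5-fold lower, against 0.565%. None was higher in dKO by at least 25% either, against 2.99%. Above 0 were 4 of the 10, against 46.3% of all counted genes. By the copy expressed, at P2.5 the paternally expressed genes had a median of 0.07 and the maternally expressed genes 0.18; at E15.5 the medians were -0.02 and -0.07.

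The authors' deposited table gives each gene a test between the 2 libraries of a stage, which compares those libraries and not the genotypes. In the authors' deposited table none of the 10 genes was called significant at either stage, against 0.406% of all genes tested at P2.5 and 0.936% at E15.5. Over the 10 genes the p-values of the authors' deposited table ran between 0.150 and 0.986 at P2.5 and between 0.247 and 0.947 at E15.5. The standard error implied by each log2 fold change and test statistic of the authors' deposited table lay between 0.27 and 0.56 at P2.5 and between 0.16 and 0.59 at E15.5. The implied 95% intervals held 0 for all 10 genes at both stages, and covered reads and the authors' model of their spread, not differences between animals. For H19 at P2.5 the interval from the authors' deposited table ran between 0.802-fold and 2.31-fold, and for Igf2 between 0.427-fold and 1.96-fold. For Cdkn1c at E15.5 it was narrower, between 0.857-fold and 1.32-fold. At P2.5 the interval left no room for a 2-fold change in either direction for 7 of the 10 genes and for a 1.5-fold change for none of them. At E15.5 these counts were 9 and 5.

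**Figure D2:**
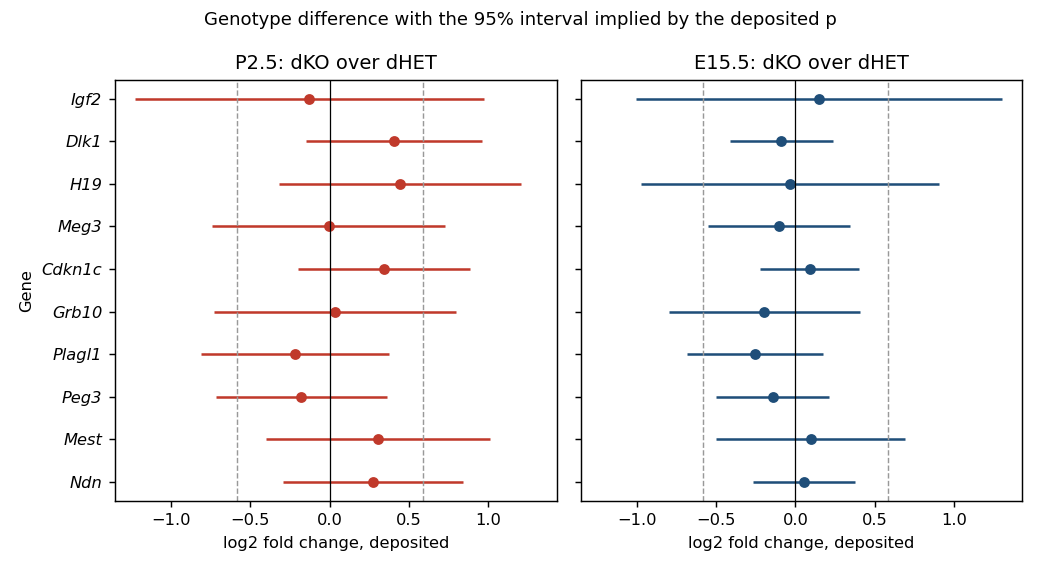
The log2 fold change of dKO over dHET from the authors' deposited tables for the 10 genes (points) with the 95% interval implied by the deposited test (lines), at P2.5 on the left and E15.5 on the right, with dashed lines at a 1.5-fold change. Every interval holds 0, and those of Igf2 are the widest at P2.5 and E15.5.

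The stages were compared next, within each genotype. The 2 tables were normalized separately and the stages differ in read type, so a level set across tables is a description, and stage and table cannot be told apart. The 10 genes summed to 1302 FPKM in P2.5 dKO and 1191 FPKM in P2.5 dHET, and to 4413 FPKM in E15.5 dKO and 4339 FPKM in E15.5 dHET. As a share of the summed FPKM of all rows used, this was 0.439% in P2.5 dKO and 0.453% in P2.5 dHET, and 1.91% in E15.5 dKO and 1.89% in E15.5 dHET. The place of a gene among the rows used of its own library does not use the scaling. In the P2.5 libraries the lowest placed gene, Dlk1, stood at the 81.4th percentile in dKO and the 77.4th in dHET, and in the E15.5 libraries at the 93.2nd in dKO and the 93.5th in dHET. Igf2 stood 73rd in P2.5 dKO and 51st in P2.5 dHET, against 6th and 7th in E15.5 dKO and dHET.

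In dKO hearts all 10 genes were lower at P2.5, 8 of them by at least 2-fold, against 2.4% of the 8638 counted genes; 6.52% of those genes were at least 2-fold higher. The median log2 change was -1.55, where the median of all counted genes was 0.03. In dHET hearts all 10 were likewise lower at P2.5 and 8 by at least 2-fold, against 3.58% of the 8572 counted genes (5.24% were at least 2-fold higher), with a median of -1.65 where all counted genes had -0.06. The same 8 genes passed in both genotypes, all but Meg3 and Ndn, against 1.87% of the 8382 genes counted in both. All 10 lay below 0 in both genotypes, against 44.4% of the genes. These are counts beside a background over all genes, for a set chosen with earlier results of these data known. The dKO pair of libraries also differed in sex.

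The stage difference was smaller in dKO than in dHET for 8 of the 10 genes and larger for Igf2 and Peg3, as deposited. With equal sums, Meg3 (log2 changes of -1.23 in dKO and -1.16 in dHET) and Plagl1 (-1.71 and -1.58) also differed more in dKO. Plagl1 did so as well when centred on all genes, at -1.37 and -1.31. Medians of all counted genes were 0.03 in dKO and -0.06 in dHET. The share of all genes with a smaller difference in dKO was not counted. The widest gap between the genotypes was that of H19, 3.77-fold in dKO and 5.23-fold in dHET. These gaps are the genotype changes at the 2 stages in another form and were not tested. By the copy expressed, the paternally expressed genes had a median log2 change between stages of -1.55 in dKO and -1.65 in dHET, and the maternally expressed genes -1.39 and -1.62. Igf2, which promotes growth, and Cdkn1c and Grb10, which restrain it, were each at least 2-fold lower at P2.5 in both genotypes.

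**Figure D3:**
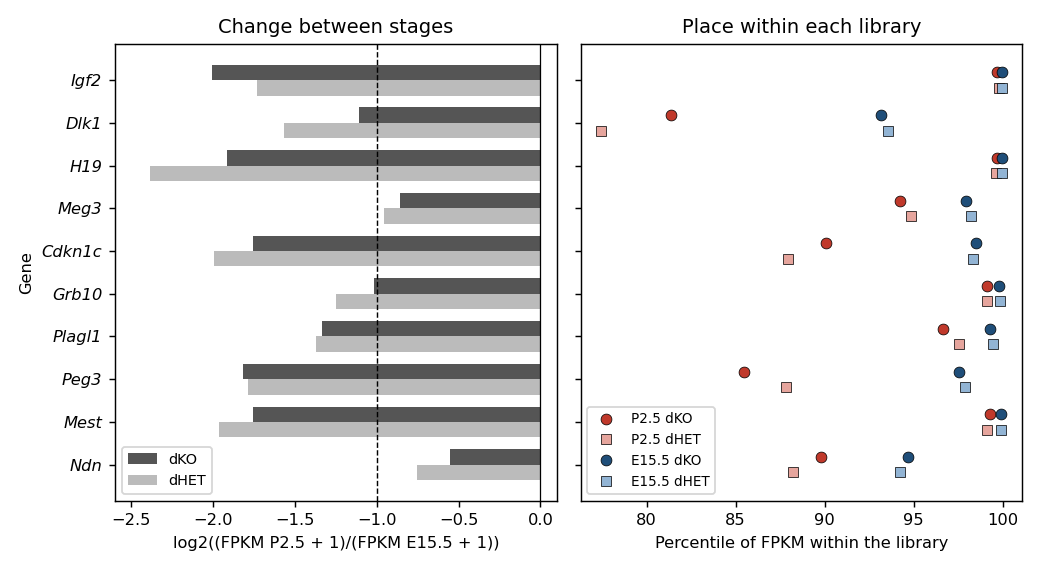
Left, the log2 change of P2.5 over E15.5 for the 10 genes in dKO (dark bars) and dHET (light bars), with a dashed line at a 2-fold lower level. Right, the percentile of each gene's FPKM among the rows used of its library. All bars point to lower levels at P2.5, and Meg3 and Ndn are the genes that stop short of the dashed line in both genotypes.

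Some cell type markers differed between stages as well, not all in the same direction. Cardiomyocyte markers (10 rows used) summed to 30075 FPKM in P2.5 dKO and 23314 FPKM in P2.5 dHET, and to 12624 FPKM in E15.5 dKO and 13353 FPKM in E15.5 dHET. At least 2-fold higher at P2.5 were 5 of the 10 in each genotype, among them Tnnt2 in dKO. Fibroblast markers summed to 1595 and 1573 FPKM in P2.5 dKO and dHET, and to 1145 and 1194 FPKM in E15.5 dKO and dHET, with medians between stages of 0.39 in dKO and 0.55 in dHET over 11 counted genes. Of these 11, 3 lay below 0 in dKO and 4 in dHET. Endothelial markers summed to 490 and 440 FPKM in P2.5 dKO and dHET, and to 382 and 358 FPKM in E15.5 dKO and dHET. Their medians between stages were 0.28 in dKO and 0.15 in dHET, with 5 of 12 below 0 in each genotype. The part of these markers in the stage difference of the imprinted genes was not tested. Liver and lung markers, from organs that also express Igf2 and H19, summed to less than 1 FPKM in every library, with 0.164 FPKM in P2.5 dKO, 0.294 in P2.5 dHET, 0.126 in E15.5 dKO and 0.152 in E15.5 dHET as the highest marker. Smooth muscle and pericyte markers summed to 2443 FPKM in P2.5 dKO and 1322 FPKM in P2.5 dHET, and to 1743 and 1211 FPKM in E15.5 dKO and dHET. In these sums the highest marker alone had 1692 and 658 FPKM in P2.5 dKO and dHET, and 1215 and 692 FPKM in E15.5 dKO and dHET. These markers went both ways with genotype. Of 12, 3 were at least 1.5-fold higher and none lower in P2.5 dKO, with 4 below 0. The shares of all counted genes there were 3.62% and 1.16%. In E15.5 dKO 1 was higher and 2 lower, with 6 below 0, against 0.493% and 0.565% of all counted genes.

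Other imprinted genes were read from a list of 60 that leaves out the 10 genes, of which 59 were in the tables. Between genotypes at P2.5, 26 were counted, of which none was at least 1.5-fold higher and 2 were lower (Ddc and Dcn), with a median of 0.00. At E15.5, 29 were counted, of which 1 was higher (Blcap) and 1 lower (Ddc), with a median of -0.02. Ddc, which lies beside Grb10 on chromosome 11 and encodes the decarboxylase that makes dopamine and serotonin, had 9.17 FPKM in P2.5 dKO and 21.9 FPKM in P2.5 dHET, and 7.21 FPKM in E15.5 dKO and 12.8 FPKM in E15.5 dHET. Its log2 changes were -1.17 and -0.75, and the authors' deposited table called Ddc significant at both stages with a q-value of 0.013 at each. Grb10, its neighbour, was at 0.04 and -0.20 in the same libraries. Dcn, which encodes decorin and also stands in the fibroblast list, had 122 FPKM in P2.5 dKO and 187 FPKM in P2.5 dHET. Of 11 counted fibroblast markers, 3 were at least 1.5-fold lower in P2.5 dKO, Dcn itself among them, against 1.16% of all counted genes. Another 3 of the 11 were above 0. Blcap had 23.7 FPKM in E15.5 dKO and 14.9 FPKM in E15.5 dHET, a log2 change of 0.64.

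Between stages 30 of these other imprinted genes were counted. In dKO hearts none was at least 2-fold higher at P2.5 and 7 were lower, with a median log2 change of -0.18. In dHET hearts 1 was higher, Dcn at 1.04, and 6 were lower, with a median of -0.23. Lower by at least 2-fold in both genotypes were 5 of the 30 (Igf2r, Nnat, Peg10, Rian and Zim1), and 19 lay below 0 in both. Nnat, Peg10 and Zim1 were below 5 FPKM in both P2.5 libraries. They passed the filter only through E15.5, where they were higher, so the filter itself favoured their being counted as lower. Nnat and Zim1 were named after their values were seen. Igf2r, the receptor that carries Igf2 to the lysosome, had 92.2 FPKM in P2.5 dKO and 92.5 FPKM in P2.5 dHET, and 246 FPKM in E15.5 dKO and 241 FPKM in E15.5 dHET. The antisense Airn overlaps Igf2r. Rian, a noncoding RNA of the Dlk1 and Meg3 locus, had 8.30 FPKM in P2.5 dKO and 10.1 FPKM in P2.5 dHET, and 23.8 and 24.3 FPKM in E15.5 dKO and dHET. Peg10 had 2.60 FPKM in P2.5 dKO and 2.57 FPKM in P2.5 dHET, and 11.3 and 11.6 FPKM in E15.5 dKO and dHET, whereas Sgce, its neighbour on chromosome 6, differed little between stages (17.5 and 16.7 FPKM in P2.5 dKO and dHET, 20.1 and 18.9 FPKM in E15.5 dKO and dHET). Zim1, beside Peg3, had 1.83 FPKM in P2.5 dKO and 2.18 FPKM in P2.5 dHET, and 12.6 and 15.3 FPKM in E15.5 dKO and dHET.

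Neighbours in the same imprinted domains did not all follow the 10 genes. Of 24 listed, 23 were in the tables and 6 were counted between stages, with 3 above 0 and 3 below 0 in each genotype. The 6 are also among the 30 other imprinted genes above. Of the 6, 2 were at least 2-fold lower at P2.5 in each genotype, Rian and Zim1, and none was at least 2-fold higher. Kcnq1, a potassium channel gene near Cdkn1c that was named after its values were seen, had 22.6 FPKM in P2.5 dKO and 21.9 FPKM in P2.5 dHET, and 12.1 and 11.8 FPKM in E15.5 dKO and dHET. Its log2 change between stages was 0.84 in dKO and 0.85 in dHET, opposite to that of Cdkn1c. Kcnq1ot1, the noncoding RNA of that domain, was below 0.5 FPKM in every library, at 0.131 in P2.5 dKO, 0.173 in P2.5 dHET, 0.412 in E15.5 dKO and 0.429 in E15.5 dHET. Snrpn, a paternally expressed gene of the Ndn region also named after its values were seen, had 12.3 and 12.9 FPKM in P2.5 dKO and dHET, and 6.77 and 7.69 FPKM in E15.5 dKO and dHET.

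A list of 16 genes around Igf2 held receptors and binding proteins. It also held Igf1, Irs1, Irs2, Igf2bp1, Igf2bp2 and Igf2bp3, so not all of the list bind or receive the Igf2 protein. Between genotypes none was at least 1.5-fold different at either stage, of 12 counted at P2.5 and 14 at E15.5. Irs2, which relays the insulin and IGF1 receptor signal, had 15.2 FPKM in P2.5 dKO and 23.0 FPKM in P2.5 dHET, a log2 change of -0.56, and 0.28 at E15.5. The binding protein gene Igfbp5 was lower in dKO at both stages, with log2 changes of -0.47 and -0.52, and the insulin receptor gene Insr stood at -0.50 and -0.21. Between stages, 14 of the list were counted, of which 2 were at least 2-fold higher and 4 lower at P2.5 in dKO, and 2 higher and 8 lower in dHET. Their medians were -0.96 in dKO and -1.02 in dHET. Genes that maintain imprints were a list of 12, of which 8 were counted and none was 1.5-fold different between genotypes. Between stages 1 of the 8, Zfp57, was at least 2-fold lower at P2.5, against 2.4% of all counted genes in dKO and 3.58% in dHET. Zfp57 was named after its values were seen, and had log2 changes of -1.08 in dKO and -1.06 in dHET.

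**Figure D4:**
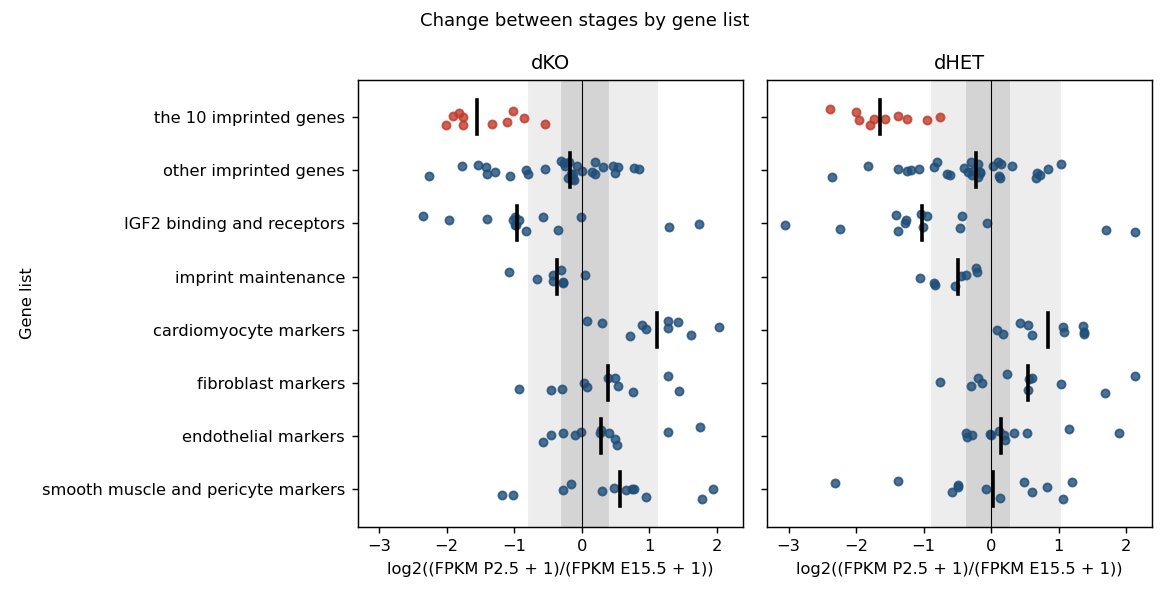
The log2 change of P2.5 over E15.5 for each counted gene (points) of 8 gene lists, with the list's median (black bars), in dKO on the left and dHET on the right. The dark band holds the middle 50% and the light band the middle 90% of all counted genes. The 10 imprinted genes (red) have the lowest median of the 8 lists in both genotypes, and the cardiomyocyte markers the highest.

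Promoters are shown because most of the genes were lower at P2.5 together. RefSeq promoters (build GRCm38.p6, windows of 300 bases around a start) were matched for 8 of the 10 genes, with 15 entries. Motifs were searched on both strands: TGCCGC, the core word of the imprint-keeping protein ZFP57, TGACGTCA, the cAMP response element, TATAAA, and GCCATNTT of YY1. TGCCGC was in 6 of the 15 entries (11.6% of all 32851 promoters), of which 2 are overlapping entries of Mest. TGACGTCA was in 2, a Meg3 and a Peg3 entry (1.79% of all). TATAAA was in 1, of Meg3 (13.6% of all), and GCCATNTT in none (6.05% of all). The entries held between 1 and 45 CpG with a median of 13, where all promoters had a median of 7. TGCCGC and TGACGTCA each hold a CpG, and the shares of all promoters were not matched for CpG. Capitals in the sequences below mark these motifs, on either strand; none of the windows says which protein is bound.
Meg3 promoter (chr12:109540746-109541045, plus strand): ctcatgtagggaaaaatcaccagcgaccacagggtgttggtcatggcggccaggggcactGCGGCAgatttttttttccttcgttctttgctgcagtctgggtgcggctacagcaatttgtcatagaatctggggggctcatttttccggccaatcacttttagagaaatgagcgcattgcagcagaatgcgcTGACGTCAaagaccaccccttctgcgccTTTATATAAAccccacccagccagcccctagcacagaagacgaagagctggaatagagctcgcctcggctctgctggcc
Peg3 promoter (chr7:6730370-6730669, minus strand): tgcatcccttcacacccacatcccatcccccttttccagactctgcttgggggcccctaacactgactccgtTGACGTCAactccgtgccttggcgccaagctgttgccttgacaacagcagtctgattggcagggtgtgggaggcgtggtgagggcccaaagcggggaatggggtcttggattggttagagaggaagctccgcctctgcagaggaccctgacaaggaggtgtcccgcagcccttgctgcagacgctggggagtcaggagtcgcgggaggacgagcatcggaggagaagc
Mest promoter (chr6:30737800-30738099, plus strand): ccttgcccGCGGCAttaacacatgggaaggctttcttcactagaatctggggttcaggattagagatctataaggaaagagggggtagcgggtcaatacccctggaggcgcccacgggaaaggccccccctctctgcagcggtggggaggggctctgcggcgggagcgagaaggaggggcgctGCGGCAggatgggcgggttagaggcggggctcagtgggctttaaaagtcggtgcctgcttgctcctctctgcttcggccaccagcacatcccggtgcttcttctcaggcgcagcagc
The Meg3 window held TGCCGC, TGACGTCA and TATAAA, the Peg3 window TGACGTCA, and the Mest window TGCCGC at 2 places. Between stages Meg3 differed least but for Ndn, and Peg3 and Mest were among the genes with the wider differences. TGCCGC was also in an Igf2, a Grb10 and a Plagl1 entry, which are not shown. Whether these words bear on the stage difference was not tested.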

How the data were processed

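Whole-heart RNA was measured in 4 mouse libraries, 1 per stage and genotype. The authors' deposited tables hold FPKM for each gene and, for each stage, their own log2 fold change, test statistic, p-value and q-value. Per the submitters' processing notes the tools were TopHat, Bowtie and Cufflinks on mm9, with no versions; the sources used here give no settings for scaling, strand or multiply mapped reads. Commas in gene names had displaced 86 rows per table, which were realigned. Changes were computed as log2((FPKM + 1)/(FPKM + 1)) over rows flagged OK or with too few fragments that reached 5 FPKM in 1 of the libraries compared. A gene was counted at 1.5-fold between genotypes and at 2-fold between stages. The authors' E15.5 ratio was turned to dKO over dHET. Scaling totals were recovered from low values, of which between 81.1% and 85.9% came out within 0.1 of whole fragments. The steps were tested on simulated data. Alternatives varied the pseudocount, filter, scaling, flags and fold.

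The 10 genes and the lists were chosen with earlier results of these data known. Named besides the 10 genes were other imprinted genes and neighbours at 1.5-fold, Ddc, Igf2r, Rian, Kcnq1ot1, Sgce and Peg10, and Igf2r with 3 others of the Igf2 list. Python 3.11.15, pandas 2.3.3, NumPy 2.4.6, SciPy 1.17.1 and matplotlib 3.10.9 were used.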

Additional observations from a re-analysis of the deposited data

Results flagged for a closer look

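For 4 of the 10 genes the dKO value lay on opposite sides of the dHET value at the 2 stages. The share of all genes that did so was not counted, so the 4 are not shown to be unusual. Of all counted genes 63.2% were above 0 at P2.5 and 46.3% at E15.5. With 1 library for each group the difference between stages was not tested. The log2 change of dKO over dHET at P2.5 minus that at E15.5 was -0.28 for Igf2, 0.47 for H19, 0.46 for Dlk1 and 0.23 for Grb10. None of the changes behind these reached 1.5-fold, and the P2.5 sign of Grb10 turned with the scaling.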

How the results depend on the processing

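No paired analysis was possible because each group has 1 library and the labels give no replicate numbers. For the same reason no library could be left out. The count of the 10 genes at the fold used for genotype was 0 at both stages under every alternative with 1 exception, a line at 25% at P2.5, which gave 3, all higher in dKO. Over the alternatives to the scaling, pseudocount, filter and flags, 0 of 80 single-gene values at P2.5 and 0 of 80 at E15.5 moved by more than the standard error implied by the authors' test. These counts say little, because the filter and flags cannot alter a single gene's value. The standard error was also a wide line, between 0.27 and 0.56 at P2.5 and between 0.16 and 0.59 at E15.5. Grb10 at P2.5 changed sign under both rescalings. Setting libraries to equal sums moved the median of all counted genes to -0.08 at P2.5, against 0.08 as deposited; between stages it moved to -0.32 in dKO, against 0.03, and to -0.26 in dHET, against -0.06. Between stages the count at least 2-fold lower was 6 with a pseudocount of 5, without Dlk1 and Grb10, and 9 with equal sums in dKO, against 8, and between 8 and 9 in dHET, while a 1.5-fold line gave 9 and 10. The median in dKO was -1.44 with a pseudocount of 5 and -1.92 with equal sums, against -1.55. The median in dHET was -1.46 with a pseudocount of 5, -1.59 when centred on all genes and -1.88 with equal sums, against -1.65. Of 60 single-gene values between stages in each genotype, 18 in dKO and 19 in dHET moved by more than the counting error of 1 kilobase of transcript, and none changed sign. The 60 include values under other filters, which could not move. Other imprinted genes at P2.5, of which 2 were counted at 1.5-fold, numbered 4 with equal sums, 1 at 2-fold and 6 with a line at 25%. At E15.5 they numbered 0 with a pseudocount of 5 and 0 at 2-fold, against 2. The cause of these shifts was not tested. Dlk1 had the fewest fragments per kilobase of the set, but the standard error implied by the authors' test was largest for Igf2 at both stages.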
